A study of Mus musculus with 10 samples.

Results

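The genes described here are the monocyte chemoattractant cluster of mouse chromosome 11, Ccl2, Ccl7, Ccl8, Ccl11 and Ccl12, together with Ccr2, the main receptor of that cluster on monocytes. They were chosen by gene symbol, with earlier results of these data known. All 6 were found among the 16667 genes with normalized counts and the 29242 genes with TPM (the share of each gene among all transcripts, corrected for its length). RNA was sequenced from visceral fat of 10 wild-type C57BL/6 mice aged 10 weeks. Of these, 5 had undergone sham surgery and 5 carried an orthotopic KPC tumour, a transplanted pancreatic adenocarcinoma of the mouse KPC model growing in the pancreas. The gwat in each sample title most likely stands for the gonadal depot. The sources used here give neither the origin of the tumour cells nor the sex of the mice or the time between surgery and collection, and the labels name no allele or agent besides the tumour. The series title concerns type 2 immunity while fat wastes during cancer.

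CC chemokines are small secreted proteins that guide leukocytes and are named for a pair of adjacent cysteines near the start of the mature protein. CCL2, CCL7 and CCL12 act on CCR2, the G protein-coupled receptor by which inflammatory monocytes leave the bone marrow and enter tissue. CCL7 also binds further receptors of the family. CCL11, or eotaxin, acts on CCR3 and draws eosinophils, and mouse CCL8 acts on CCR8. In fat, these ligands are made by macrophages, fibroblast-like progenitors, endothelium and adipocytes, and recruitment through CCR2 is a known route by which adipose macrophages accumulate.

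The coding sequences of the 5 ligands are shown around their adjacent cysteine codons, which are in capitals, because these codons define the family and the flanking bases show how far the neighbours have diverged. Each stretch covers 48 bases of the GENCODE vM21 transcript on GRCm38, read 5′ to 3′.
Ccl2: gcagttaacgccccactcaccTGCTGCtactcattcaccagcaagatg
Ccl7: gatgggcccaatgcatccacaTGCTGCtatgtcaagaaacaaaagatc
Ccl8: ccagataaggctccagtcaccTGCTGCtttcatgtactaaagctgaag
Ccl11: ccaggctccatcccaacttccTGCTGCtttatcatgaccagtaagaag
Ccl12: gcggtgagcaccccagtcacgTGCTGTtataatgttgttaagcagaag
Each ligand had exactly 1 such codon pair. Over the positions of the coding sequences that aligned without a gap, identity between ligands ran from 60.8% for Ccl8 and Ccl11 to 70.5% for Ccl8 and Ccl12, which are direct neighbours. Of the 444 coding bases of Ccl2, only 290 to 312 were aligned with another ligand, and the rest are not counted. No stretch of 31 bases in a transcript of Ccl2, Ccl7, Ccl8 or Ccl12 occurred in a transcript of another gene, and Ccl11 shared 1 of 1052. Ccr2 shared 230 of 6745 such stretches (3.41%) with other genes, so reads from those stretches could be divided between genes.

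On GRCm38, the 5 ligand genes lie in a row on the plus strand of chromosome 11 and span 81.2 kb, with no other annotated gene between them. Ccl2 (ENSMUSG00000035385, 82035571 to 82037453) comes first, followed by Ccl7 (ENSMUSG00000035373, 82045712 to 82047525) and Ccl11 (ENSMUSG00000020676, 82057823 to 82062955). After a gap of 38.9 kb come Ccl12 (ENSMUSG00000035352, 82101845 to 82103400) and Ccl8 (ENSMUSG00000009185, 82115185 to 82116799). Ccr2 (ENSMUSG00000049103) lies on the plus strand of chromosome 9 from 124101950 to 124113557. All 6 are protein-coding. Gm17268 overlaps Ccl2 on the other strand and was listed at 0 TPM in all 10 libraries.

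Libraries summed to between 20941242 and 24449863 normalized counts. KPC mouse 1 stood apart from the other libraries: mitochondrially encoded genes took 15.7% of its TPM against 26.3% to 33.3% elsewhere, and its median correlation with the other libraries was 0.908 against 0.939 to 0.959. The tissue carried adipocyte transcripts throughout, with a summed level of 8 adipocyte markers of 9557 TPM in KPC mouse 1 and at least 13680 TPM in every sham library. Skeletal muscle transcripts also set libraries apart: the sum of 6 muscle markers was 375, 1040 and 3162 TPM in sham mice 3, 4 and 5 and 36.7 to 181 TPM in the other 7 libraries, and all 6 markers had a negative difference (median -3.07). Their part in the results was not tested. The difference of each of the 6 genes is given with and without KPC mouse 1. Levels below are in TPM, with the SD over the 5 mice of a group after ±, differences are KPC minus sham on the log2(normalized count + 1) scale with the SE from limma, and a gene is said to have passed at a Benjamini-Hochberg adjusted p under 0.05 over the 14203 genes tested.

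In fat of tumour-bearing mice the 6 genes all had a higher mean than in sham mice, but by very different amounts, and none passed the test. Ccl8 stood apart, with every tumour-bearing mouse above every sham mouse. Ccl11 and Ccr2 lay higher in 4 of 5 tumour-bearing mice than in any sham mouse, and Ccl2, Ccl7 and Ccl12 in 2 of 5. By limma 0 of the 6 passed, where 0.0563% of all genes tested passed, 0.0493% as higher and 0.00704% as lower. At an unadjusted p under 0.05, 4 of the 6 were higher and 0 lower, where 7.61% of all genes were higher and 5.91% lower. Complete separation of the groups was seen for 1 of the 6, where 2.75% of all genes had all KPC mice above all sham mice and 1.28% had them below. A positive difference was found for 6 of 6, where 46.9% of all genes had one. The median difference was 1.19 for the 6 genes and -0.02 over all genes tested. Without KPC mouse 1, 4 of the 6 again had an unadjusted p under 0.05 and were higher, where 7.14% of all genes were, and the median difference of the 6 was 0.56. Because the 6 genes and all lists below were chosen with earlier results of these data known, such counts beside all genes are a description.

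**Figure D1:**
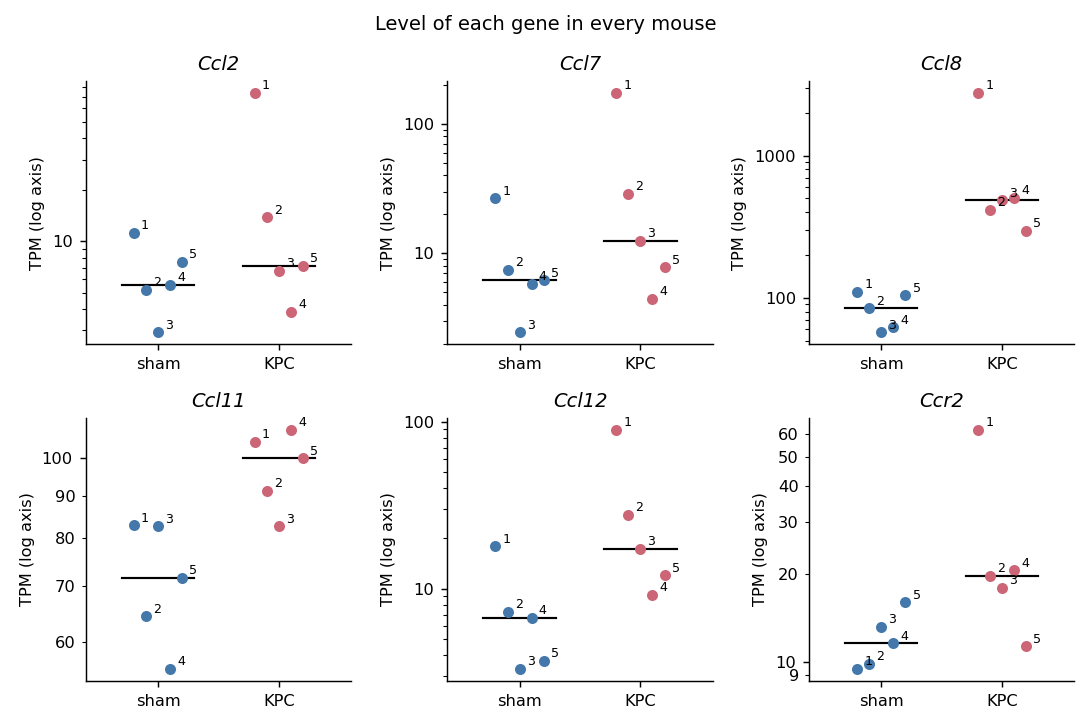
TPM of each gene in every mouse on a log axis whose range differs between panels, with mouse numbers beside the points and the group median as a bar. Ccl8 is the gene whose groups do not overlap, with sham mice at 57.4 to 111 TPM and KPC mice at 296 to 2753 TPM, and KPC mouse 1 is the highest point for every gene except Ccl11.

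Ccl8 was the most abundant ligand gene of the cluster in 4 of 5 sham mice and in all 5 tumour-bearing mice. In sham mice 1 to 5 its level was 111, 84.4, 57.4, 62.1 and 104 TPM. In KPC mice 1 to 5 it was 2753, 414, 485, 508 and 296 TPM. The lowest tumour-bearing mouse thus lay well above the highest sham mouse, and KPC mouse 1 lay far above the other 4, which formed a compact group. Means were 83.8 ± 24.1 TPM in sham against 891 ± 1044 TPM in KPC mice (SD, n = 5 each), or 426 ± 95.3 TPM over the 4 KPC mice without mouse 1. The log2 difference was 2.94 ± 0.53 (SE), a fold of 7.67 (95% interval 3.45 to 17.1), with an unadjusted limma p of 0.000149, rank 23 among all genes tested, and an adjusted p of 0.0795. Without KPC mouse 1 the difference was smaller, at 2.38, but its spread was smaller too, and the adjusted limma p was 0.00581, so that Ccl8 passed in that fit. In bulk tissue, more cells of a type and more RNA per cell cannot be told apart, for this and all other genes here.

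Ccl11, the eotaxin gene, was abundant, varied little between mice and had a small difference. Its levels were 82.9, 64.4, 82.7, 55.6 and 71.6 TPM in sham mice 1 to 5 and 105, 91.2, 82.7, 108 and 99.8 TPM in KPC mice 1 to 5. Of the tumour-bearing mice, mouse 3 lay just below the highest sham mouse and the other 4 lay above it. The difference was 0.49 ± 0.14, a fold of 1.40 (95% interval 1.14 to 1.73), with an adjusted limma p of 0.197, and it was 0.44 without KPC mouse 1. Its SD within groups on the log2 scale was 0.229, below the median of 0.280 over all genes tested, whereas the SD of the other 5 genes ran from 0.692 for Ccr2 to 1.75 for Ccl7. No mouse was an extreme value for Ccl11, and KPC mouse 1 was not its highest.

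Ccl12, a ligand of CCR2 found in mice, stood at 17.9, 7.24, 3.30, 6.71 and 3.70 TPM in sham mice 1 to 5. Tumour-bearing mice 1 to 5 had 89.7, 27.6, 17.3, 9.16 and 12 TPM. Sham mouse 1 was high and reached above KPC mice 3, 4 and 5, so the groups overlapped, although all 5 KPC mice exceeded the sham median. The difference of Ccl12 was 1.76 ± 0.66, a fold of 3.38 (95% interval 1.25 to 9.19), with an adjusted limma p of 0.299. It was 1.23 without KPC mouse 1 and 1.64 without mouse 1 of both groups.

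The stretches just before the start sites of Ccl8 and its neighbour Ccl12 are shown because these are adjacent genes with the largest estimated differences of the cluster. RefSeq promoter entries on GRCm38.p6 were matched for 3 of the 6 genes, Ccl8, Ccl12 and Ccr2. The 100 bases up to the start site follow, both on the plus strand and read 5′ to 3′, with the letters TATAAA, the core of a TATA box, in capitals.
Ccl8, chr11:82115085-82115184: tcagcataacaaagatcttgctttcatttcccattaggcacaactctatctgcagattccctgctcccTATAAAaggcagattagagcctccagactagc
Ccl12, chr11:82101745-82101844: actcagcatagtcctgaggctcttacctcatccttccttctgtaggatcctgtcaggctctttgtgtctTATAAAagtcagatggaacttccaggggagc
The letters TATAAA begin 32 bases before the start of Ccl8 and 31 bases before that of Ccl12. Of 32817 RefSeq promoter windows of 300 bases, 8.32% held these letters on the coding strand, and that of Ccr2 did not. Over the 300-base windows, Ccl8 and Ccl12 were identical at 180 of 277 aligned positions (65.0%). Gaps were placed to raise this value and are not counted, and no value for unrelated windows was computed, so it does not show likeness. The longest shared run had 11 bases and began at unlike places, at -81 in Ccl8 and at 27 in Ccl12, counted from the start site. The GC content of the windows was 44.7% and 48.0%, below the mean of 53.8% over all windows. The patterns TGANTCA of AP-1, TTCNNNGAA of STAT factors and TTGCNNAA of C/EBP factors, searched on both strands, were found in none of the 3 windows, where 7.81%, 8.29% and 10.8% of all windows held them.

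Ccl7, a ligand of CCR2 and of further receptors, had the widest spread. It stood at 26.6, 7.48, 2.46, 5.79 and 6.19 TPM in sham mice 1 to 5 and at 173, 28.9, 12.5, 4.46 and 7.79 TPM in KPC mice 1 to 5. The groups overlapped over most of their range, with sham mouse 1 above 3 KPC mice and KPC mouse 4 below 4 sham mice. The difference was 1.41 ± 0.94, a fold of 2.66 (95% interval 0.634 to 11.1), with an adjusted limma p of 0.528, and it was 0.59 without KPC mouse 1.

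Ccl2, the best known monocyte attractant of the cluster, was its least abundant member on average in sham mice. Levels were 11.2, 5.19, 2.93, 5.53 and 7.58 TPM in sham mice 1 to 5 and 73.7, 13.8, 6.72, 3.86 and 7.16 TPM in KPC mice 1 to 5. KPC mice 3, 4 and 5 lay within the sham range. The difference of Ccl2 was 0.97 ± 0.71, a fold of 1.96 (95% interval 0.663 to 5.79), with an adjusted limma p of 0.567. Without KPC mouse 1 it was 0.28, and the mean of KPC mice was 7.88 TPM in place of 21 TPM, beside 6.49 TPM in sham mice.

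Ccr2, the receptor, stood at 9.43, 9.81, 13.1, 11.6 and 16.0 TPM in sham mice 1 to 5. In KPC mice 1 to 5 its level was 62.2, 19.7, 17.9, 20.5 and 11.3 TPM. KPC mouse 5 lay inside the sham range and the other 4 above it, with mice 2, 3 and 4 close together. The difference was 0.93 ± 0.37, a fold of 1.91 (95% interval 1.08 to 3.37), with an adjusted limma p of 0.328. It was 0.54 without KPC mouse 1.

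**Figure D2:**
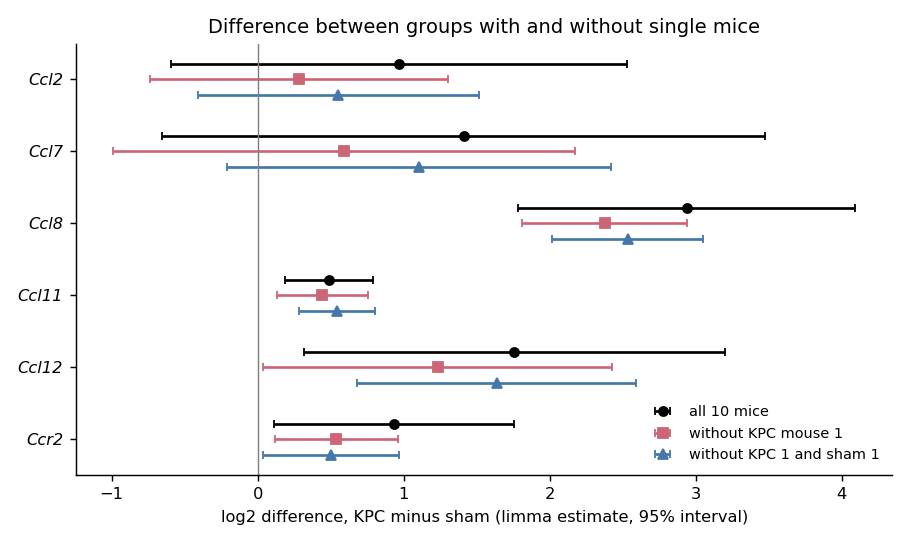
Estimated log2 difference of each gene, KPC minus sham, with its 95% interval from limma, for all 10 mice, without KPC mouse 1, and without mouse 1 of both groups. The estimate for Ccl8 stays between 2.38 and 2.94 and its interval narrows without KPC mouse 1, and that for Ccl2 moves from 0.97 to 0.28.

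The order of levels within the cluster shifted with these differences. In sham mice Ccl8 and Ccl11 were the 2 abundant ligands and lay close together, with a ratio of Ccl8 to Ccl11 of 0.694 to 1.45 over the 5 mice. In tumour-bearing mice that ratio ran from 2.96 to 26.3. Ccl8 made up 44.5%, 50.0%, 38.6%, 45.7% and 53.9% of the summed ligand TPM in sham mice 1 to 5, and 86.2%, 72.0%, 80.3%, 80.2% and 70.0% in KPC mice 1 to 5. The share of Ccl11 was 33.2% to 55.6% in sham mice and 3.28% to 23.6% in KPC mice, although the mean of its own level was higher in KPC mice. The groups did not overlap in either share, which is given as a description without a test. Ccl2, Ccl7 and Ccl12 together with Ccr2 formed the low end in sham mice, where their order changed from mouse to mouse: Ccl2 exceeded Ccl7 in 2 of 5 sham mice and in 0 of 5 KPC mice, and Ccl7 exceeded Ccl12 in 3 of 5 and 2 of 5. The summed level of the 5 ligands was 136 to 250 TPM in sham mice and 423 to 3194 TPM in KPC mice. With Ccl8 left out of the sum it was 73.7 to 139 TPM and 119 to 441 TPM, and the groups overlapped.

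**Figure D3:**
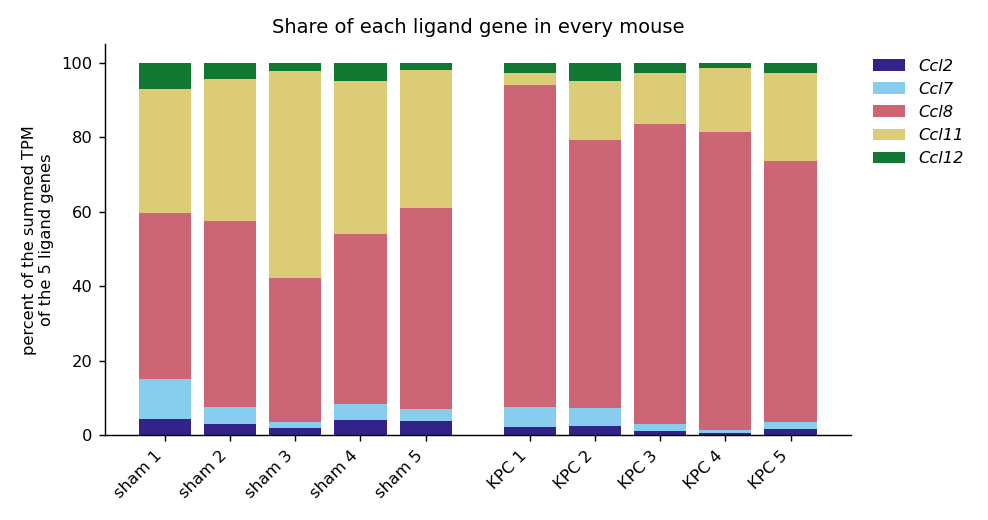
Percent of the summed TPM of the 5 ligand genes taken by each gene, as 1 stacked bar per mouse. Ccl8 takes 38.6% to 53.9% of the sum in sham mice and 70.0% to 86.2% in KPC mice, and Ccl11 takes the larger part of the remainder in each mouse except KPC mouse 1.

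Within the cluster, Ccl2, Ccl7 and Ccl12 varied together from mouse to mouse. Across the 10 mice, Pearson correlation of log2 levels was computed for the 15 pairs of genes, with permutation p-values adjusted over the 15 pairs. Ccl2 and Ccl7 had r = 0.975 (permutation p = 2e-05, adjusted 0.00015) and Spearman rho = 0.903 (permutation p = 0.00072, adjusted 0.0054), with r = 0.925 after the 2 mice farthest from the median of Ccl2 were left out. Ccl7 and Ccl12 had r = 0.948 (permutation p = 2e-05, adjusted 0.00015) and rho = 0.915 (permutation p = 0.00044, adjusted 0.0054), with r = 0.840 after leaving out 2 mice. Sham mouse 1 and KPC mice 1 and 2 were the 3 highest mice for each of Ccl2, Ccl7 and Ccl12. The titles of these 3 mice start with the number 1, as does that of sham mouse 2, which was not high, and the labels do not say what the number marks. The permutations ignore it. With the title number as a block, the difference was 1.50 ± 0.65 for Ccl7 (95% interval 0.04 to 2.96, limma, adjusted p = 0.331) and 1.89 ± 0.42 for Ccl12 (limma, adjusted p = 0.140). After both group and title number were removed, r was 0.972 for Ccl2 and Ccl7 and 0.948 for Ccl7 and Ccl12, as a description over the 10 mice.

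The receptor gene varied with Ccl8, but many other genes were closer to either. Among 11816 genes compared on log2 levels, Ccl8 ranked 556 by correlation with Ccr2, and Ccr2 ranked 350 by correlation with Ccl8. The permutation p below tests against no correlation and does not single out this pair. Ccl8 and Ccr2 had r = 0.879 (permutation p = 0.00155, adjusted 0.00581) and rho = 0.721 (permutation p = 0.0238, adjusted 0.0595), and r = 0.765 with 2 mice left out. For Ccl2 and Ccr2 r was 0.781 (permutation p = 0.0345, adjusted 0.0431) and rho 0.418 (permutation p = 0.231, adjusted 0.266), and r dropped to 0.082 without sham mouse 3 and KPC mouse 1, so that this relation rests on those mice. The difference between these correlations was not tested. These pooled values contain the difference between groups. Taken as deviations from the group mean and without mouse 1 of each group, r was 0.923 for Ccl2 and Ccl7, 0.906 for Ccl7 and Ccl12, 0.718 for Ccl2 and Ccl12 and 0.745 for Ccl8 and Ccr2, over 8 mice. In the same 8 mice Ccl11 had values from -0.601 to -0.020 with the other 5 genes. Groups of 5 mice are too small for a correlation within each group.

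**Figure D4:**
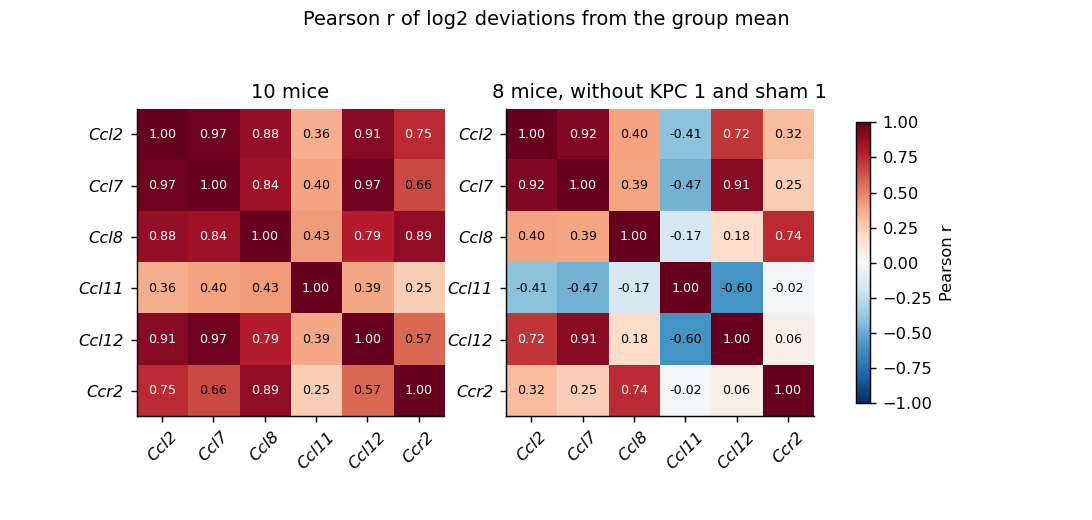
Pearson r between the 6 genes for log2 deviations from the group mean, over 10 mice at left and over 8 mice without KPC mouse 1 and sham mouse 1 at right, as a description. Ccl2, Ccl7 and Ccl12 keep r of 0.718 to 0.923 in the right panel, Ccl8 and Ccr2 keep 0.745, and Ccl11 has no positive value with another gene.

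The genes most like each member across the 10 mice were sought among 11816 genes with a mean of at least 50 normalized counts. These highest values are a description, since the best of many genes is always high. For Ccl7 they were Il1b, the interleukin 1 beta gene (r = 0.984), Ccl2 (0.975) and the interferon-stimulated gene Isg15 (0.974), and for Ccl2 they were Atp6v1f, a subunit of the proton pump of lysosomes (0.985), Isg15 (0.985) and Ccl7 (0.975). Ccl12 was most like Calhm6, Casp8, the caspase 8 gene, and the neutrophil calgranulin gene S100a8, with r of 0.982, 0.973 and 0.967.

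Ccl8 was most like Fcgr4, an activating receptor for immunoglobulin G on myeloid cells (r = 0.990), Irak4, a kinase downstream of Toll-like receptors (0.990), and Naip2, an inflammasome sensor of bacterial protein (0.986). Ccr2 was most like Fes, a kinase of myeloid cells (0.986), Clec4a2, a lectin receptor of myeloid cells (0.985), and Snx5, a sorting nexin (0.984). Ccl11 had lower best values, with the lymphocyte GTPase genes Gimap8 and Gimap4 at 0.935 each and the leukocyte integrin gene Itgal at 0.932. Taken as deviations from the group mean, the 3 genes most like Ccr2 were Rac2 (r = 0.987), Tnfaip8l2 (0.983) and the Fc receptor gene Fcgr3 (0.982), and Irak4 stayed among the 3 most like Ccl8 (0.985), as Il1b did for Ccl7 (0.982). Without KPC mouse 1, r over the other 9 mice was 0.961 for Ccl7 and Il1b, 0.963 for Ccl2 and Atp6v1f, 0.964 for Ccl12 and Calhm6, 0.981 for Ccl8 and Fcgr4, 0.922 for Ccl11 and Gimap8 and 0.944 for Ccr2 and Fes.

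Markers of macrophages and classical monocytes lay higher in tumour-bearing mice. Sham mouse 1, which was high for Ccl2, Ccl7 and Ccl12, was at -0.16 for macrophage and 0.23 for monocyte markers, as log2 relative to the sham mean. All 10 macrophage markers on the list had a positive difference and 9 of 10 had an unadjusted limma p under 0.05, with 0 passing after adjustment. Of all genes tested, 46.9% had a positive difference and 7.61% were higher at an unadjusted p under 0.05. Their summed level was 885 to 1428 TPM in sham mice and 1502 to 6063 TPM in KPC mice, the highest in KPC mouse 1. Of 12 classical monocyte markers 11 were positive and 6 had an unadjusted p under 0.05, with sums of 755 to 1894 TPM in sham against 2077 to 8726 TPM in KPC mice. The mean difference was 0.93 over the macrophage list and 1.22 over the monocyte list, and 0.66 and 0.79 without KPC mouse 1. Ccr2 had 0.93 and Ccl8 2.94, and 0.54 and 2.38 without that mouse. The rise was not confined to these 2 lists. Positive differences were also found for 7 of 7 resident-type macrophage, 6 of 6 dendritic cell and 6 of 6 tested T cell markers, but for 1 of 3 tested B cell and 2 of 6 mast cell markers. The part of any of these cells in the differences of the 6 genes was not tested.

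As list means of log2 levels, neutrophil and red cell markers were high in the mice in which Ccl2, Ccl7 and Ccl12 were high. Relative to the sham mean on the log2 scale, neutrophil markers stood at 0.80 in sham mouse 1, 2.55 in KPC mouse 1, 1.30 in KPC mouse 2 and 1.25 in KPC mouse 3, and at -0.31 to 0.34 in the other 6 mice. Red cell markers stood at 0.79 in sham mouse 1, 2.29 in KPC mouse 1 and 1.40 in KPC mouse 2, and at -0.92 to 0.54 in the rest. All 6 tested neutrophil markers and all 5 red cell markers had a positive difference, with 1 and 0 below an unadjusted limma p of 0.05, where 46.9% and 7.61% of all genes were positive and higher at that p. Summed levels were 13.7 to 58.8 against 18.2 to 253 TPM and 4748 to 12870 against 8547 to 40710 TPM. The highest red cell sum in sham mice was in mouse 5, with 12730 TPM in mouse 1. In sham mice S100a8, S100a9 and Retnlg reached at most 23.5, 28.6 and 8.07 TPM, and every other neutrophil marker at most 1.67 TPM. The part of neutrophils and red cells in the levels of Ccl2, Ccl7 and Ccl12 was not tested.

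Markers of eosinophils, the cells that eotaxin attracts, were mostly low and did not share a direction. Of 7 eosinophil markers 4 could be tested and 1, Ear2, a ribonuclease gene that macrophages also express, had an unadjusted p under 0.05, at 23.2 ± 6.97 TPM in sham against 48.7 ± 18.2 TPM in KPC mice with an adjusted limma p of 0.125. At an unadjusted limma p under 0.05, 7.61% of all genes tested were higher and 5.91% lower. Epx, the eosinophil peroxidase gene, was listed at 0 in all 10 libraries, and Siglecf reached at most 0.788 TPM. Ear1, another ribonuclease gene, was at 1.02 ± 0.406 TPM in sham mice and 3.31 ± 4.09 TPM in KPC mice with up to 10.4 TPM, and Prg2, the major basic protein gene, was at 1.28 ± 0.474 and 0.791 ± 0.750 TPM (log2 difference -1.24, limma, adjusted p = 0.509). The sum of the list was 17.1 to 32.8 TPM in sham against 39.1 to 90.1 TPM in KPC mice and consisted mainly of Ear2. Adipocyte and fibroblast markers, which label other sources of these chemokines, had median differences of -0.14 and -0.04. Of the 6 epithelial or tumour cell markers, 4 could be tested and 0 had an unadjusted limma p under 0.05, and the sum of the list was 8.87 to 20.6 TPM in sham mice and 12.4 to 26.3 TPM in KPC mice. The keratin genes Krt7 and Krt18 made up most of it, Krt18 at 6.83 ± 2.15 TPM in sham mice and 9.90 ± 3.81 TPM in KPC mice, and Epcam reached at most 0.119 TPM in any library.

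**Figure D5:**
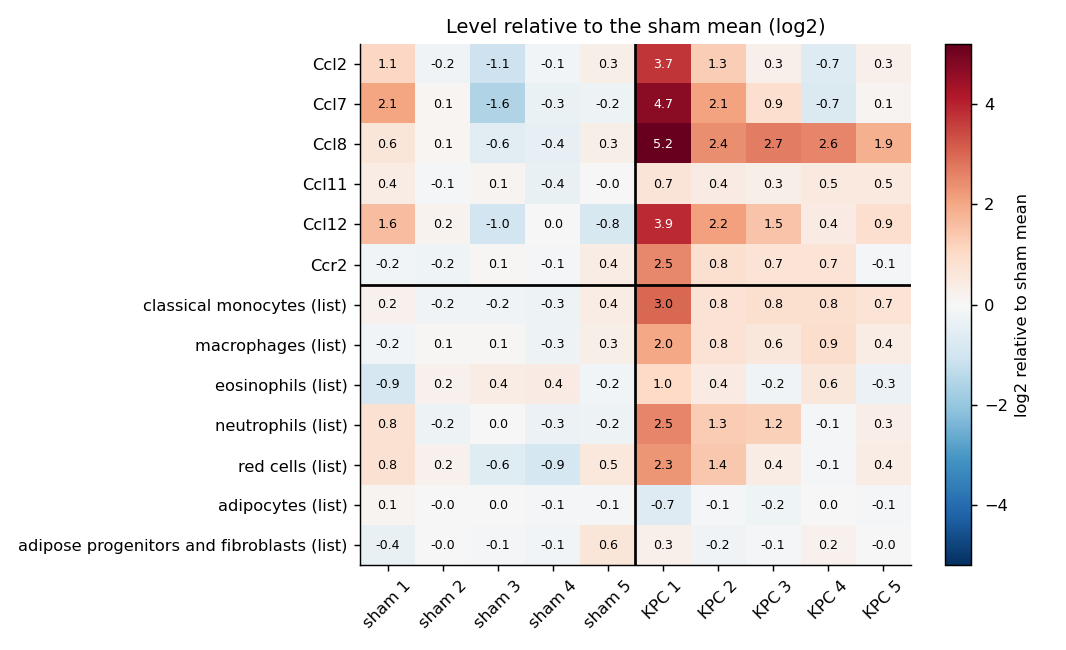
Level of each of the 6 genes and mean level of 7 marker lists in every mouse, as log2 relative to the sham mean, with sham mice left and KPC mice right of the vertical line. KPC mouse 1 is at 5.2 for Ccl8, 3.0 for monocyte and 2.0 for macrophage markers, and sham mouse 1 is high for Ccl7 (2.1) and Ccl12 (1.6) but not for macrophage markers.

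Other receptors and scavengers of the cluster split in direction. Of 7 tested genes 4 had a positive and 3 a negative difference, with 0 passing, 2 higher and 1 lower at an unadjusted limma p under 0.05, and a median of 0.89. For all genes tested, 46.9% had a positive difference, and 7.61% were higher and 5.91% lower at that p. Ackr1, the scavenging receptor of venules and red cells that displays chemokines on the vessel wall, stood at 13.1 ± 1.83 TPM in sham against 23.9 ± 4.45 TPM in KPC mice, with no overlap and a difference of 0.89 ± 0.19 (limma, adjusted p = 0.0994). Ccr1, a receptor shared by several CC ligands, stood at 3.67 ± 0.403 and 13.2 ± 12.4 TPM (limma, adjusted p = 0.251). Ccrl2, an atypical receptor, stood at 1.48 ± 0.843 and 0.752 ± 0.181 TPM (limma, adjusted p = 0.369). Ackr2, which degrades inflammatory CC chemokines, was at most 1.15 TPM in any library. Among the cognate receptors, Ccr3, the eotaxin receptor, stood at 0.759 ± 0.436 and 0.681 ± 0.554 TPM, and Ccr8, the CCL8 receptor, missed the minimum mean for testing, at 0 to 0.275 TPM in sham against 0 to 0.243 TPM in KPC libraries. The receptors of the 2 most abundant ligands thus reached at most 1.66 TPM and 0.275 TPM in whole fat.

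The CC chemokine genes farther along chromosome 11 also lay higher. Ccl5, Ccl6 and Ccl9 were tested, and for all 3 the KPC mice lay above the whole sham group, with unadjusted limma p under 0.05 and 0 passing after adjustment. Such a separation was seen for 2.75% of all genes tested, and 7.61% were higher at that p. Ccl6, a macrophage chemokine, stood at 161 ± 10.8 TPM in sham against 705 ± 794 TPM in KPC mice (difference 1.67 ± 0.47, limma, adjusted p = 0.199). Ccl9, also from myeloid cells, stood at 47.1 ± 4.11 and 179 ± 175 TPM, and Ccl5, a product of T cells among others, at 7.26 ± 1.26 and 11.9 ± 4.59 TPM. Their adjusted limma p was 0.172 and 0.299. Without KPC mouse 1 the mean difference of the 3 genes was 0.98 in place of 1.31. Ccl1, the next gene of the cluster after Ccl8, missed the minimum mean for testing, at 0 to 0.440 TPM in sham against 0 to 0.272 TPM in KPC libraries, as were Ccl3 and Ccl4, which reached 3.20 and 3.15 TPM at most.

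Inducers and transcription factors of these ligands were mostly a little higher. Of 17 tested genes 14 had a positive difference, 7 had an unadjusted limma p under 0.05, all higher, and 1 passed, with a median of 0.23. Among all genes tested, 46.9% had a positive difference, 7.61% were higher at that p and 0.0493% passed as higher. The gene that passed was Cebpd, a transcription factor of the acute phase response, at 8.52 ± 1.81 TPM in sham against 32.9 ± 8.68 TPM in KPC mice (difference 1.96 ± 0.22, limma, adjusted p = 0.0109). Stat3, which carries signals of interleukin 6 type cytokines, stood at 41.4 ± 4.25 and 56.8 ± 7.40 TPM, with no overlap (difference 0.49 ± 0.09, limma, adjusted p = 0.0795). Irf7, a factor of interferon responses, stood at 17.9 ± 2.37 and 33.2 ± 21.4 TPM, and Sp1, a general activator, at 12.2 ± 2.19 and 11 ± 2.07 TPM, with adjusted limma p of 0.328 and 0.730. Tnf, Il1a, Ifng, Il4 and Il13 were too low to test, with at most 1.89 TPM in any library. Il1b, a classical inducer of Ccl2, ran from 0.356 to 2.48 TPM in sham against from 0.439 to 26.3 TPM in KPC mice (limma, adjusted p = 0.466).

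Genes that restrain the ligands, by destabilising their mRNA or blocking NF-kappa-B and cytokine signals, had a positive difference in 9 of 10 cases, with 5 at an unadjusted limma p under 0.05 and 0 passing, and a median of 0.54. A positive difference was found for 46.9% of all genes tested, and 7.61% were higher at that p. Nfkbia, the inhibitor of NF-kappa-B that this factor itself induces, stood at 56.3 ± 9.18 TPM in sham against 95.9 ± 25.2 TPM in KPC mice (difference 0.78 ± 0.15, limma, adjusted p = 0.0795). Zfp36, the mRNA-destabilising protein tristetraprolin, stood at 17.5 ± 2.85 and 27.2 ± 6.46 TPM, and Nfkbiz at 2.55 ± 0.290 and 5.13 ± 2.38 TPM, with adjusted limma p of 0.195 and 0.252. Zfp36l2, a relative of Zfp36, stood at 66.3 ± 10.6 and 59.5 ± 9.51 TPM (limma, adjusted p = 0.783).

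Genes of CCR2 signalling and monocyte migration, a list not particular to CCR2, were higher for 12 of 27 at an unadjusted limma p under 0.05. Of the list, 0 were lower and 0 passed, with 21 positive differences, 8 genes without overlap and a median of 0.27. Over all genes tested, 7.61% were higher at that p, 46.9% had a positive difference and 2.75% had all KPC mice above all sham mice. Pik3r5, the regulatory subunit of the phosphoinositide 3-kinase gamma of leukocytes, stood at 2.30 ± 0.303 TPM in sham against 4.83 ± 1.62 TPM in KPC mice (difference 1.05 ± 0.21, limma, adjusted p = 0.0836). The integrin subunits Itga4 and Itgal, which hold rolling leukocytes on the vessel wall, stood at 1.31 ± 0.186 and 1.49 ± 0.211 TPM in sham mice beside 2.13 ± 0.459 and 2.59 ± 0.636 TPM in KPC mice, with adjusted limma p of 0.114 and 0.148. Itgb1, an integrin subunit of nearly all cells, stood at 161 ± 23 and 143 ± 24.3 TPM (limma, adjusted p = 0.588).

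Genes of chemokine trimming and of the matrix that holds chemokines showed no common direction, with 5 positive and 6 negative differences of 11, 2 higher at an unadjusted limma p under 0.05, 0 passing and a median of -0.03. Across all genes tested, 46.9% had a positive difference and 7.61% were higher at that p. Sdc4, a heparan sulphate proteoglycan of the cell surface, stood at 31.8 ± 6.19 TPM in sham against 60.0 ± 22.8 TPM in KPC mice with no overlap (limma, adjusted p = 0.127), and Mmp3, the protease stromelysin, at 10.2 ± 4.15 and 29.4 ± 18.1 TPM (limma, adjusted p = 0.199). Dpp4, the peptidase that clips the start of several chemokines, stood at 14.7 ± 4.63 and 11.9 ± 2.43 TPM, and Ext1, which builds heparan sulphate chains, at 32.2 ± 4.32 and 28.8 ± 3.92 TPM, with adjusted limma p of 0.604 and 0.574.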

How the data were processed

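RNA of visceral fat from 5 sham and 5 tumour-bearing mice was extracted with a column kit and sequenced at a service laboratory, per the labels' protocols. The authors deposited a table of normalized counts, treated as a non-negative signal, and a table of TPM made by the authors; Salmon, DESeq, DESeq2 and build mm10 are named in the submitters' processing notes, and the sources used here give no version, annotation or strand setting. Both deposited tables carry 1 quantification: over 10131 genes above 100 normalized counts in every sample, the log2 ratio of the tables had a median SD of 0.00041 within a gene after 1 factor per sample. Whole reads were not recovered (30.9% to 47.3% of values up to 30 came within 0.05 of a whole multiple of the best step), so no count model was run and counting error is not separated from the spread between mice. TPM totals were 918469 to 933945 per library.

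All 20 columns were matched to samples by title, with groups and mouse numbers from the description label. Genes with a mean of at least 10 normalized counts were tested in R 4.3.3 with limma 3.58.1 and a variance trend on log2(normalized count + 1), KPC against sham, two-sided. On simulated data for this comparison with 14203 genes, 72.4% of the genes given a log2 difference of 1 passed, as did 94.4% of those given 2, and 4.90% of all calls were false. The simulated noise was normal with the same SD in both groups, and the changed genes were drawn at random among those with a mean of at least 50. These rates do not hold for Ccl2, Ccl7, Ccl8, Ccl12 and Ccr2. Their SD within groups was 0.692 to 1.755, against a median of 0.280 over all genes tested, and was larger in KPC than in sham mice. The 6 genes and all lists were chosen with earlier results of these data known. From each pathway list the text names the 3 genes with the smallest unadjusted p and the gene with the most negative difference, and for each of the 6 genes its most correlated genes; further genes named (Ccr3, Ccr8, Il1b, Krt7 and Krt18 among them) were chosen after their values were seen. Permutation p-values for correlations used 100000 permutations. Coordinates are from GENCODE vM21 (GRCm38) and promoter sequences from RefSeq. Alternatives were other pseudocounts, filters, scalings, variance models, blocks and leaving out mice.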

Additional observations from a re-analysis of the deposited data

Results flagged for a closer look

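In each group of 5 mice, a mouse was picked out where its gap to the nearest other mouse took a larger share of the whole range in TPM than Dixon's 95% critical value for 5 samples. This was the case in 7 of 12 combinations of gene and group. Chance gives about 1 in 20 only for normally distributed values. TPM was used here without a log scale, which widens the gap above a high mouse, so the 7 cases are not compared with that rate. The rule was not applied to log2 levels, the scale of the limma tests. KPC mouse 1 was picked out as the highest for Ccl2 (73.7 TPM), Ccl7 (173 TPM), Ccl8 (2753 TPM), Ccl12 (89.7 TPM) and Ccr2 (62.2 TPM), with gaps of 0.858, 0.855, 0.914, 0.770 and 0.818 of the range. Sham mouse 1 was picked out as the highest for Ccl7 (26.6 TPM) and Ccl12 (17.9 TPM), with gaps of 0.792 and 0.731. The 7 cases come from 2 libraries and from genes that vary together, so they are not 7 independent events. Ccl11 had no such mouse in either group.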

How the results depend on the processing

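All 6 genes kept a positive difference under each of the 23 alternatives run, the last of which, without mouse 1 of both groups, was chosen after the data were seen, as were the correlations without KPC mouse 1 or after the title number was removed. Ccl2, Ccl7, Ccl11, Ccl12 and Ccr2 did not pass under any of them; the lowest adjusted limma p over these alternatives was 0.404, 0.267, 0.0772, 0.124 and 0.183 in that order. Ccl8 passed in 3 of 23: with array weights (2.64, adjusted p = 0.00374), without KPC mouse 1 (2.38, adjusted p = 0.00581) and without mouse 1 of both groups (2.53, adjusted p = 0.00907). Over all 23 its adjusted p ran from 0.00374 to 0.249 and over single mice left out its difference ran from 2.38 to 3.21. Over single mice left out the difference ran from 0.28 to 1.38 for Ccl2, 0.59 to 1.95 for Ccl7, 0.39 to 0.59 for Ccl11, 1.23 to 2.16 for Ccl12 and 0.54 to 1.18 for Ccr2, each lowest value except that of Ccl11 being the fit without KPC mouse 1. Among all genes, 7 passed as higher and 1 as lower. These counts were 2 and 0 on log2(TPM + 1), 2 and 1 without a variance trend, 172 and 28 with array weights, 3 and 1 with the title number as a block, and 43 and 6 without mouse 1 of both groups. With single mice left out they ran from 1 to 66 higher and from 1 to 4 lower; they were 66 and 4 without KPC mouse 1, 13 without KPC mouse 2, 1 without KPC mouse 4 or sham mouse 4, 4 without KPC mouse 5, 2 without sham mouse 1, 2 or 3 and 3 without sham mouse 5 as higher, and 2 as lower without KPC mouse 3. The cause was not tested. With the description number as a replicate block, 3 genes passed as higher and 1 as lower and none of the 6 genes passed (Ccl8 2.94, adjusted p = 0.0804). Same-numbered mice had correlations of deviations from 0.005 to 0.191, not all over 0.1, and 2 of 5 sham mice correlated best with their own number, so the numbers are not taken as pairs. Rescaling moved the median difference of all genes from -0.017 to at most -0.004. With 5 mice a group, the spread between mice limits what can be called: the 95% intervals of Ccl2 and Ccl7 include both no difference and a rise of over 5-fold.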
